A study of Mus musculus with 12 samples.

Results

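Interferon response and major histocompatibility complex (MHC) genes were examined as a list of 38 named genes out of 55416 gene identifiers in the deposited tables, measured by RNA sequencing of 12 libraries. The list was chosen by name and with earlier results of these data known, so the shares called are description only. Each gene was found once by its Ensembl identifier on GRCm38. It holds 4 transcription factors, 3 cytosolic nucleic acid sensors, 21 antiviral and other effectors, 2 peptide transporter subunits, 4 MHC class I genes and 4 MHC class II genes. The study placed CT-26 cells, a colon carcinoma line, under the abdominal skin of male BALB/c mice aged 7 weeks, to produce cachexia, the wasting that accompanies a tumour. The tumour-bearing mice weighed 7 to 10% less than healthy mice by day 10, and they were killed on day 25. The control mice were male BALB/c mice of the same stated age with no tumour injection, and no day of collection is given for them. Gastrocnemius, a calf muscle, and hypothalamus were taken from the same 6 mice, by their numbers in the labels, which gave 4 groups of 3 libraries, namely CT-26 gastrocnemius, CT-26 hypothalamus, control gastrocnemius and control hypothalamus. All mice were of one strain and one sex, and one tumour line was used.

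Interferons are secreted proteins that signal through cell surface receptors, Janus kinases and transcription factors, STAT2 and IRF9 among them. These factors, with the IRF family, switch on antiviral effectors such as the Ifit, Oas, Mx and Ifitm families. They also raise the MHC class I pathway, in which Tap1 and Tap2 carry peptides to a heavy chain paired with B2m, for display to CD8 T cells and natural killer cells. Interferon gamma acts through Irf1 and the coactivator Ciita on MHC class II genes, which in resting tissue are carried mostly by dendritic cells, macrophages and B cells. In the brain, class II RNA comes mainly from microglia and border macrophages, and class I is low in neurons.

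Many of these genes share short promoter elements, so the promoters of some of the members on which the results turn are shown first, read from RefSeq's GRCm38.p6 annotation. The reference is the C57BL/6J genome, whose MHC haplotype differs from that of BALB/c. A window of 300 bases, 250 before and 50 after the annotated start of transcription, was at hand for 27 of the 38 members. It was searched on both strands for the core of the interferon-stimulated response element, GAAA followed after any 2 bases by GAAA, and for TTCNNNGAA, the gamma-activated sequence of interferon gamma targets. The response element core was found in 14 of the 27 members (51.9%), against 3.99% of 27025 genes, and the gamma-activated sequence in 6 (22.2%), against 9.55% of genes. The response element core was present in 10 of 15 effectors, in B2m and H2-T23 among the class I genes, and in neither class II gene that had a window. The interferon consensus sequence known from mouse class I promoters, which stands in capitals in H2-K1 and H2-D1 below, was searched after the sequences had been seen. It occurred in H2-K1 and H2-D1 among the members and in 10 of 27025 genes in all. The overlap of motifs in a window was counted for each motif separately, and a match describes the letters only.

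In the promoters below, the first 280 bases of each window are given 5′ to 3′ along the gene's own strand, which ends 30 bases after the start of transcription, and capitals mark motif matches. Ifitm2 and Ifitm3 are shown because they were the members with higher RNA in muscle. Ifit3, H2-T23, H2-K1 and H2-D1 are shown for the hypothalamus, and H2-Aa, with no match, for the class II genes. The choice favours members with higher RNA and a match. Irf9, lower in hypothalamus, is not shown and had no match in any of its windows. Irf1, not shown either, had a gamma-activated sequence and no response element core. Ifi27 and Cd74 had no window. Ifitm2 lies on chr7:140955932-140956211 (minus strand) and Ifitm3 on chr7:141010715-141010994 (minus strand). Ifit3 lies on chr19:34583279-34583558 (plus strand), H2-T23 on chr17:36032672-36032951 (minus strand) and H2-K1 on chr17:34000304-34000583 (minus strand). H2-D1 lies on chr17:35262844-35263123 (plus strand) and H2-Aa on chr17:34287794-34288073 (minus strand).
Ifitm2: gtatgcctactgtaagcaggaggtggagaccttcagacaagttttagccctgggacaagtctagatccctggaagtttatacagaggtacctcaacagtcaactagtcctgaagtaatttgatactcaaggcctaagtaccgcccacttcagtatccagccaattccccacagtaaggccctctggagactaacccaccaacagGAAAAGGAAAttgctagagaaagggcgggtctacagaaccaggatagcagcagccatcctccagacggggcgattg
Ifitm3: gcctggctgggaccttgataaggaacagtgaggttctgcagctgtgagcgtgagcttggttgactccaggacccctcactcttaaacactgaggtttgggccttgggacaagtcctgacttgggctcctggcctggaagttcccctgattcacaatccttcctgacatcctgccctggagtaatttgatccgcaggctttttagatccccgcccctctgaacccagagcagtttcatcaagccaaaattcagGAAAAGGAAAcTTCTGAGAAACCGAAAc
Ifit3: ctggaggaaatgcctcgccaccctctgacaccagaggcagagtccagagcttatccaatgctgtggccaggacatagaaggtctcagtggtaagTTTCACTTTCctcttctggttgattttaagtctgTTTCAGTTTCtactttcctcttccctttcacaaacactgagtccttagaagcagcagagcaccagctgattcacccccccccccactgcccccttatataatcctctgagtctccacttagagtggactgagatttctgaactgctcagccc
H2-T23: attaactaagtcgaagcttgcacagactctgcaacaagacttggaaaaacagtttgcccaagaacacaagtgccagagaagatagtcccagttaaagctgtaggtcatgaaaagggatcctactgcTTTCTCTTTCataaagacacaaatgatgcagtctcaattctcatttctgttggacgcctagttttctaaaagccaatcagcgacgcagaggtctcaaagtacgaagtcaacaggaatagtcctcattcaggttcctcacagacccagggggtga
H2-K1: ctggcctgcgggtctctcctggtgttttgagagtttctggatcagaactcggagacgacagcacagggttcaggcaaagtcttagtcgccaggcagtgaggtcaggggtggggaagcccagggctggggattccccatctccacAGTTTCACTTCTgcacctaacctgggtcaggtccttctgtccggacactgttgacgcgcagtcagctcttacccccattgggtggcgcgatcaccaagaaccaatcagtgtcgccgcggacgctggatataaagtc
H2-D1: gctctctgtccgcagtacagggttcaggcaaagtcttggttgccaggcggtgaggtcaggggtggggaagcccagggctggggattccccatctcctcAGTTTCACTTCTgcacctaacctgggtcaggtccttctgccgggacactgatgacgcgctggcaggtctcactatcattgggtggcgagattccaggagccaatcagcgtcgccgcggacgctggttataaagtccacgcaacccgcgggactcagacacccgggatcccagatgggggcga
H2-Aa: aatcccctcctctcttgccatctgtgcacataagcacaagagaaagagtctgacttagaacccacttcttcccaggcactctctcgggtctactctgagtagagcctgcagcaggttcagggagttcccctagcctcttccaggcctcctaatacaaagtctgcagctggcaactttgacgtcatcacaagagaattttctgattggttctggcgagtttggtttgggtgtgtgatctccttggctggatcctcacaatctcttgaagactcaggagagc
Ifitm2 and Ifitm3 share a response element core of the same letters, before the start of transcription in Ifitm2 and just after it in Ifitm3. In Ifitm3 the capitals also hold a match to the gamma-activated sequence, which overlaps a second response element core.

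The libraries held 26015741 to 52535761 assigned reads. Tissue identity followed the labels, since the summed level of 9 neuronal markers was 4109 to 6523 TPM in hypothalamus and at most 2.81 TPM in muscle, where TPM is the authors' measure of transcript level scaled for gene length and depth. Markers of other cells moved with the CT-26 groups in both tissues. The summed level of 9 neutrophil markers was 549, 80.3 and 71.8 TPM in CT-26 gastrocnemius, against 0.87, 0.77 and 1.23 TPM in control gastrocnemius. In CT-26 hypothalamus it was 284, 84.7 and 26.0 TPM, against 3.30, 2.97 and 3.88 TPM in control hypothalamus. All 6 neutrophil markers tested in muscle and 5 of 6 in hypothalamus rose, and all 5 erythroid markers rose in both tissues. Of the macrophage and monocyte markers, 4 of 9 tested rose in muscle and 2 of 10 in hypothalamus, where 0 of 8 microglial markers were called. Markers of B cells and of T and NK cells summed to at most 0.77 TPM in every library, with no marker at 0 throughout a tissue. In CT-26 muscle all 5 adipocyte markers fell, with a median log2 fold change of -2.37, and 4 of 5 fibroblast markers fell, with a median of -1.55. Of the microglial markers, 2 of 5 tested in muscle fell. The part of these cells in the results below was not tested. In whole tissue, fewer cells of a type and less RNA per cell cannot be told apart.

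In control tissue the class I genes B2m and H2-K1 led the list in TPM. B2m, the invariant light chain of class I, was the highest member in both tissues, with 80.0 ± 7.85 TPM in control gastrocnemius and 75.5 ± 4.69 TPM in control hypothalamus (SD, n = 3 each). H2-K1, a classical class I heavy chain, came next in both, at 62.0 ± 9.81 TPM in muscle and 41.5 ± 0.975 TPM in hypothalamus. In muscle Ifitm3 (50.5 TPM), whose range touched that of H2-K1, and Ifitm2 (43.4 TPM) followed, then the class II invariant chain Cd74 (25.9 TPM), H2-D1 (22.8 TPM) and Ifi27 (20.4 TPM), and the ranges of Cd74, H2-D1 and Ifi27 ran into each other. In hypothalamus the next were Ifi27 (30.7 TPM), Lgals3bp (27.7 TPM), H2-D1 (21.3 TPM) and Ifitm3 (19.3 TPM), of which only the ranges of Ifi27 and Lgals3bp overlapped. The antiviral effectors that define a strong interferon response were low. Isg15, a ubiquitin-like modifier, averaged 0.783 TPM in control muscle and 1.97 TPM in control hypothalamus, and Mx1 and Zbp1 were at the bottom of both orders. Every control hypothalamus library lay above every control muscle library for 16 members, below for 10, and the ranges overlapped for 12.

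**Figure D1:**
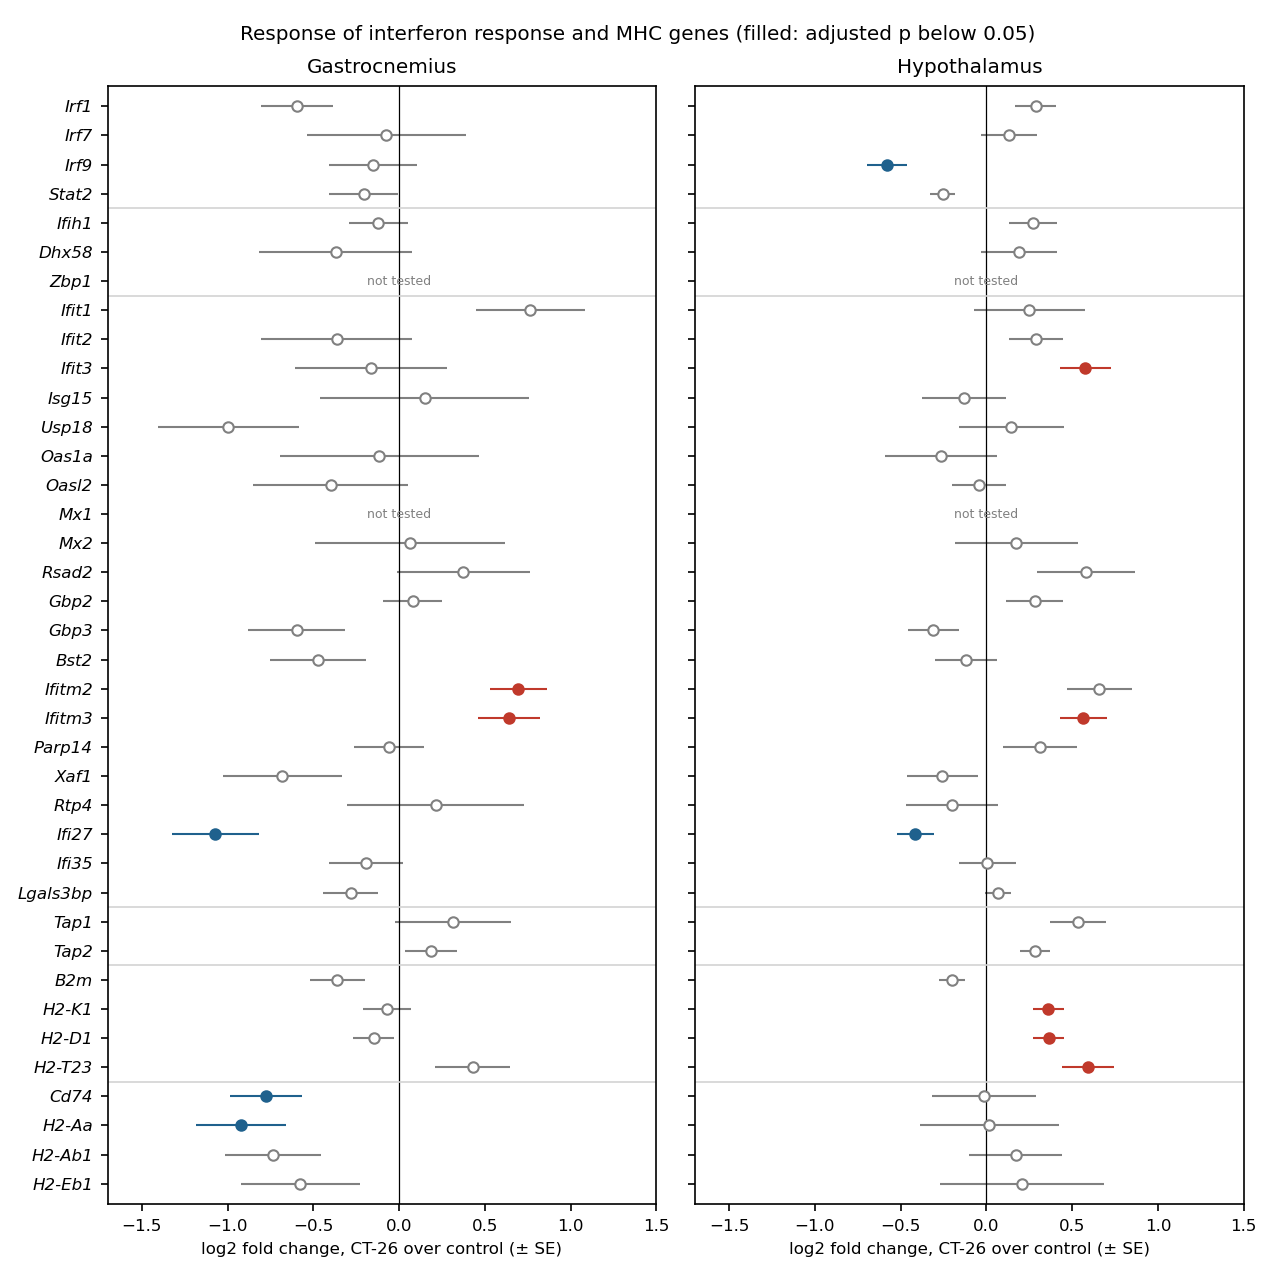
Log2 fold change of each of the 38 members, CT-26 over control, with its standard error (bars), in gastrocnemius (left) and hypothalamus (right), from edgeR fits with 3 libraries a group. Filled points passed an adjusted p of 0.05, 2 higher and 3 lower in muscle, 5 higher and 2 lower in hypothalamus, and grey lines part the roles.

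In CT-26 gastrocnemius the list did not move as one. The membrane antiviral genes Ifitm2 and Ifitm3 rose about 1.6-fold, while Ifi27, a mitochondrial interferon-induced protein, and the class II genes Cd74 and H2-Aa fell. No class I gene, transcription factor or nucleic acid sensor passed the test. Of 36 members tested, 2 were higher in CT-26 muscle, against a background of 19.6% of the 14265 genes tested, and 3 were lower, against 18.3%. Zbp1 and Mx1 had too few counts to be tested. The median log2 fold change of the tested members was -0.16, against -0.0015 over all genes tested. Each test compared 3 libraries with 3 by edgeR's quasi-likelihood test, with p adjusted over all genes by the Benjamini-Hochberg method.

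Ifitm2 (chromosome 7, 140954837 to 140955987) had 30.5, 27.1 and 41.4 CPM in CT-26 muscle, against 19.4, 20.5 and 21.3 CPM in control muscle, where CPM is the read count scaled for library size and not for gene length. All 3 CT-26 libraries lay above the controls, and the difference was 0.70 ± 0.17 on the log2 scale (SE, edgeR adjusted p = 0.0123). Ifitm3 (chromosome 7, 141009586 to 141010770) had 33.3, 35.8 and 48.7 CPM in CT-26 muscle, against 23.6, 22.2 and 29.7 CPM in control muscle. Its groups did not overlap either, with a log2 fold change of 0.64 ± 0.18 (edgeR adjusted p = 0.0239). Both proteins sit in cell and endosomal membranes and block viral entry. The neutrophil marker sum was 71.8 to 549 TPM in the same CT-26 muscles, against 0.77 to 1.23 TPM in control muscle. It was highest in CT-26 mouse 1, as was the related Ifitm1 given below, and Ifitm2 and Ifitm3 were highest in CT-26 mouse 3. The macrophage and monocyte sum was 155.7, 57.6 and 156.4 TPM in CT-26 muscle, against 50.4, 50.8 and 42.7 TPM in control muscle. The part of neutrophils or macrophages in these values was not tested. Of the stretches of 100 bases in Ifitm2, 34.9% also occur in predicted genes of the annotation, so its counts rest partly on how reads were shared out, and none of those in Ifitm3 occur elsewhere.

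Ifi27 (chromosome 12, 103434211 to 103440239) had 3.28, 3.68 and 6.40 CPM in CT-26 muscle, against 10.0, 8.17 and 9.84 CPM in control muscle. Every CT-26 library was below every control, and Ifi27 was 2.10-fold lower (log2 -1.07 ± 0.25, edgeR adjusted p = 0.0120). This call held under all 13 alternatives tried. The other effectors did not pass. Usp18, which removes Isg15 from proteins, had 0.296, 0.581 and 0.897 CPM in CT-26 muscle, against 0.949, 1.06 and 1.46 CPM in control muscle (log2 -1.0 ± 0.41, edgeR adjusted p = 0.0888), and its groups did not overlap. Ifit1, an RNA cap sensor, had 1.82, 0.929 and 1.94 CPM in CT-26 muscle, against 0.876, 0.953 and 0.960 CPM in control muscle, with groups that overlapped (edgeR adjusted p = 0.0884). For the remaining 15 effectors tested (Ifit2, Ifit3, Isg15, Oas1a, Oasl2, Mx2, Rsad2, Gbp2, Gbp3, Bst2, Parp14, Xaf1, Rtp4, Ifi35 and Lgals3bp) the log2 fold changes lay between -0.68 (Xaf1) and 0.37 (Rsad2), with adjusted p of 0.131 or more.

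In each muscle group most interferon response members were highest in a single mouse. It was numbered 3 in both groups, but CT-26 mouse 3 and control mouse 3 are different animals. Isg15 had 0.212, 0.232 and 0.897 CPM in the 3 CT-26 muscles, against 0.438, 0.513 and 0.249 CPM in the controls. Irf7, the transcription factor that amplifies type I interferon, had 1.19, 1.70 and 4.45 CPM in CT-26 muscle, against 2.34, 2.05 and 3.31 CPM in control muscle. CT-26 mouse 3 was the highest of its group for 23 of the 26 tested transcription factors, sensors and effectors, although it was the highest for 33.6% of all genes. CT-26 mouse 1 was the lowest for 21 of the same 26 members. Among the control muscles, mouse 3 was the highest for 18 of the 26, against 35.7% of all genes, and mouse 2 was the lowest for 17, against 28.3%. Without CT-26 mouse 3, 8 members rather than 3 were called lower and 1 rather than 2 higher. The members' median log2 fold change was then -0.51, and Irf1, Usp18, Oasl2, Xaf1 and H2-Eb1 joined Ifi27, Cd74 and H2-Aa.

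**Figure D2:**
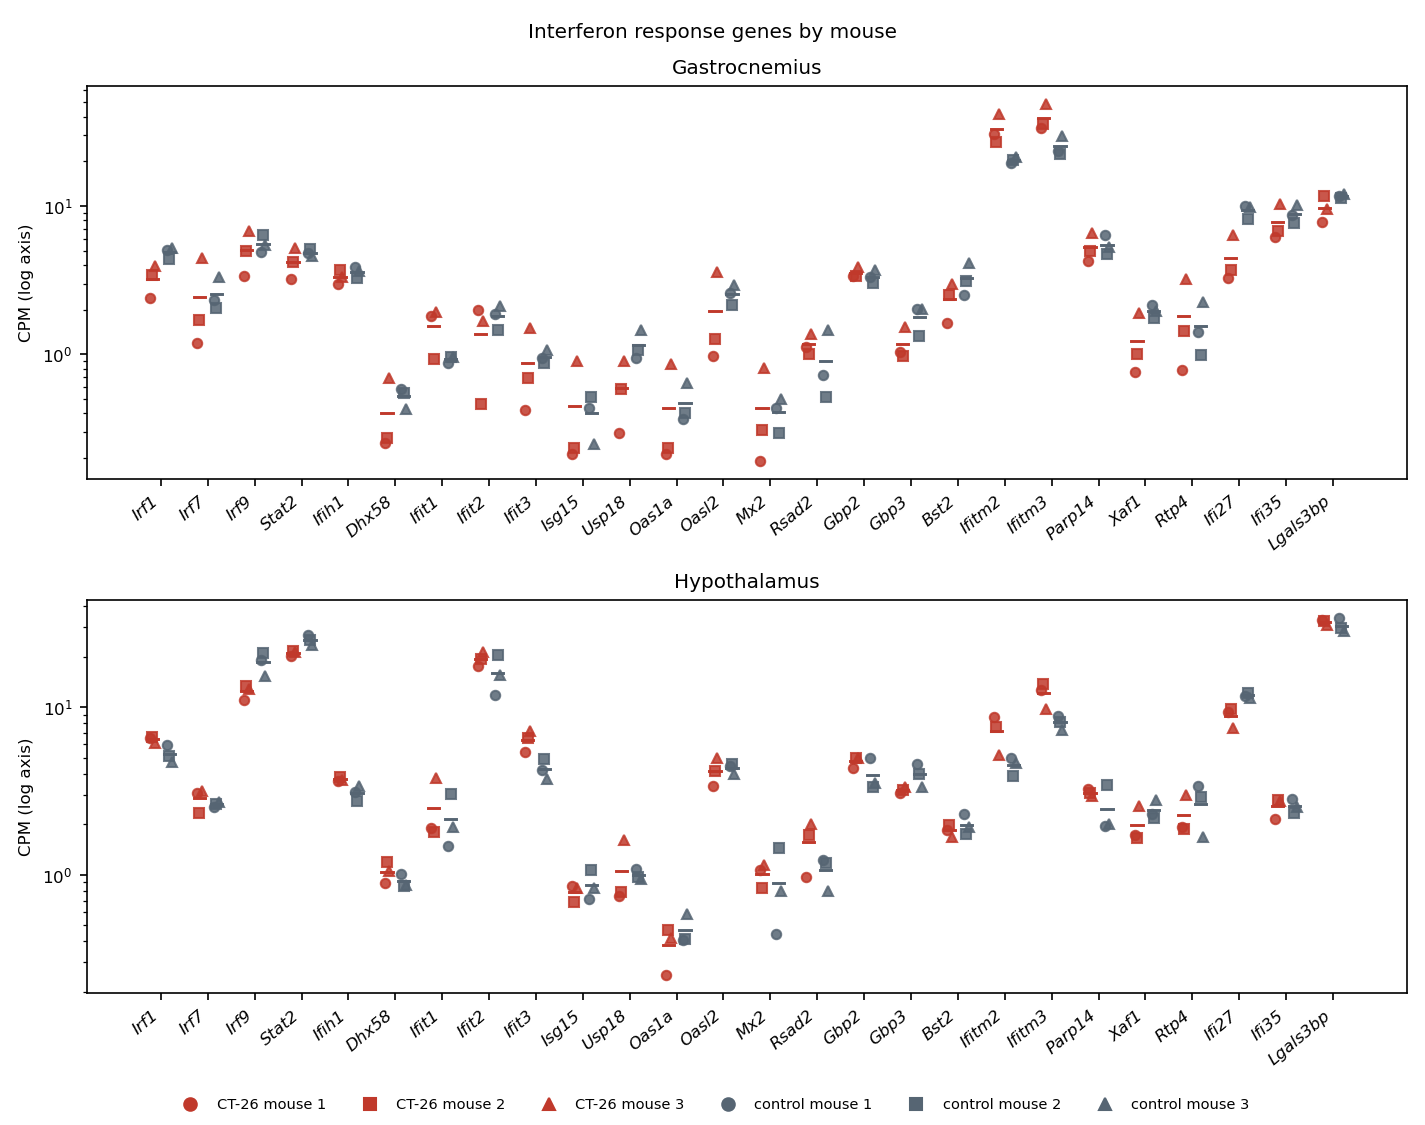
CPM of the 26 tested transcription factors, sensors and effectors in each mouse (log axis), CT-26 in red and control in grey, with marker shape giving the mouse and a line the group mean. In gastrocnemius the triangle of CT-26 mouse 3 is the highest of its group for 23 of the 26 genes. The groups there do not overlap for Ifitm2, Ifitm3 and Ifi27, which were called, or for Irf1 and Usp18, which were not.

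The transcription factors showed no call in muscle. Irf1, which acts early in the interferon gamma response, had 2.39, 3.41 and 3.92 CPM in CT-26 muscle, against 5.04, 4.36 and 5.19 CPM in control muscle. Its groups did not overlap, and the log2 fold change of -0.59 ± 0.21 missed the threshold (edgeR adjusted p = 0.0556). Irf9 and Stat2, both parts of the type I interferon complex, had log2 fold changes of -0.15 and -0.21, with overlapping groups. The sensors Ifih1 and Dhx58 had log2 fold changes of -0.12 and -0.37, also with overlapping groups.

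Of the 4 MHC class II genes, Cd74 and H2-Aa fell in CT-26 muscle, and H2-Ab1 and H2-Eb1 did not pass the test. Cd74 (chromosome 18, 60803848 to 60812652), the chaperone of class II, had 11.4, 18.7 and 21.1 CPM in CT-26 muscle, against 30.5, 29.0 and 27.9 CPM in control muscle. It fell by 0.78 ± 0.21 on the log2 scale (edgeR adjusted p = 0.0210). H2-Aa (chromosome 17, 34282744 to 34287823), the class II alpha chain, had 2.50, 5.19 and 4.90 CPM in CT-26 muscle, against 8.0, 7.48 and 8.14 CPM in control muscle. It fell by 0.92 ± 0.26 on the log2 scale (edgeR adjusted p = 0.0241). H2-Ab1, its beta chain partner, had 2.94, 6.66 and 6.22 CPM in CT-26 muscle, against 8.73, 8.87 and 8.49 CPM in control muscle, and missed the threshold (log2 -0.74 ± 0.28, edgeR adjusted p = 0.0670). H2-Eb1 had 1.29, 2.17 and 3.74 CPM in CT-26 muscle, against 3.87, 3.41 and 3.38 CPM in control muscle, with groups that overlapped (edgeR adjusted p = 0.221). The groups of 3 of the 4 class II genes did not overlap. CT-26 mouse 1 was the lowest of its group for all 4, as it was for all 4 class I genes and for 30 of the 36 members tested, against 31.2% of all genes. Over all 36 members, 6 had every CT-26 library below every control, against 25.3% of genes tested, and 2 had every one above, against 26.3%. Of the dendritic cell markers, Clec9a rose and Zbtb46 and Cd209a fell in the same muscles, with the list's sum at 1.84, 1.58 and 1.89 TPM in CT-26 muscle and 2.12, 2.51 and 2.13 TPM in control muscle. The adipocyte marker sum was 20.4, 24.9 and 19.9 TPM in CT-26 muscle, against 77.1, 97.3 and 81.4 TPM in control muscle, and the fibroblast marker sum was 253, 242 and 261 TPM in CT-26 muscle, against 455, 479 and 292 TPM in control muscle. The macrophage and monocyte sum was 156, 57.6 and 156 TPM in CT-26 muscle, against 50.4, 50.8 and 42.7 TPM in control muscle. Some muscle calls rested on single libraries. The call of Ifitm3 was lost without CT-26 mouse 3, control mouse 1 or control mouse 2 (adjusted p = 0.0566, 0.0876 and 0.0914), and that of Ifitm2 without control mouse 1 (0.0539). Without CT-26 mouse 2, 5 members rather than 3 were lower. The calls of Cd74 and H2-Aa were lost without control mouse 1 (adjusted p = 0.0656 and 0.0677) or control mouse 2 (0.0544 and 0.0530), and that of H2-Aa also without control mouse 3 (0.0625), with log2 fold changes of -0.43 to -1.11 over all alternatives.

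No MHC class I gene passed the test in CT-26 muscle, which does not show that they were unchanged. The standard errors of their log2 fold changes were 0.12 to 0.22 in muscle and 0.07 to 0.15 in hypothalamus. B2m had 36.7, 44.8 and 49.5 CPM in CT-26 muscle, against 46.7, 59.6 and 61.9 CPM in control muscle, with overlapping groups (log2 -0.36 ± 0.16, edgeR adjusted p = 0.106). H2-K1 averaged 18.4 ± 2.92 CPM in CT-26 muscle and 19.4 ± 0.641 CPM in control muscle, and H2-D1 averaged 39.3 ± 4.07 CPM in CT-26 muscle and 43.6 ± 0.861 CPM in control muscle (SD, n = 3 each). The nonclassical H2-T23, the mouse Qa-1 gene, averaged 5.29 ± 1.01 CPM in CT-26 muscle and 3.91 ± 0.837 CPM in control muscle (SD, n = 3 each). Heavy chains resemble each other, so 15 class I heavy chain genes were also summed. The sum was 70.4, 82.7 and 87.8 CPM in CT-26 muscle, against 90.2, 85.5 and 87.9 CPM in control muscle (log2 -0.13 ± 0.12, edgeR adjusted p = 0.437). Tap1 and Tap2 had log2 fold changes of 0.32 and 0.18, with overlapping groups.

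The scaling bears on all muscle values. Scaled to library totals alone, the median gene shifted by 0.20 on the log2 scale between the muscle groups, and in TPM by 0.28, against -0.0015 with the TMM factors used here. The muscle genes called split into 2801 higher and 2616 lower in the fit used here, 3957 higher and 1662 lower with library totals, and 4473 higher and 1018 lower in TPM. The members' median was then 0.05 and 0.13, which in both cases was below the median of all genes. The directions of the 5 called members were the same on each scale, and Cd74 lost its call with both (adjusted p = 0.0556 and 0.108) and H2-Aa in TPM (0.0953).

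In CT-26 hypothalamus, class I heavy chains, Ifit3 and Ifitm3 rose, by 1.28-fold to 1.51-fold, and Irf9 and Ifi27 fell. Class II did not pass the test. Of 36 members tested, 5 were higher in CT-26 hypothalamus, against 3.94% of the 17961 genes tested, and 2 were lower, against 4.83%. All 3 CT-26 libraries lay above all 3 controls for 10 members, against 14.7% of genes tested, and below for 5, against 15.6%. The genes called split into 708 higher and 867 lower, and with library totals into 882 higher and 647 lower. The members' median log2 fold change was 0.17, against -0.0032 over all genes tested.

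H2-K1 (chromosome 17, 33996017 to 34000347) had 16.1, 15.3 and 13.7 CPM in CT-26 hypothalamus, against 12.4, 11.1 and 11.5 CPM in control hypothalamus. It was 1.28-fold higher, with no overlap (log2 0.36 ± 0.09, edgeR adjusted p = 0.0316). H2-D1 (chromosome 17, 35262730 to 35267499), the other classical heavy chain, had 50.8, 43.2 and 38.1 CPM in CT-26 hypothalamus, against 34.1, 33.5 and 34.7 CPM in control hypothalamus. Its log2 fold change was likewise 0.36 ± 0.09 (edgeR adjusted p = 0.0361), and its CT-26 values spread more than its control values. H2-T23 (chromosome 17, 36029773 to 36032855), whose product is a ligand of natural killer cell receptors, had 5.51, 5.30 and 4.27 CPM in CT-26 hypothalamus, against 3.76, 2.98 and 3.19 CPM in control hypothalamus. It was 1.51-fold higher (log2 0.59 ± 0.15, edgeR adjusted p = 0.0385). The sum of 15 class I heavy chain genes was 101, 92.8 and 82.7 CPM in CT-26 hypothalamus, against 75.7, 71.4 and 73.6 CPM in control hypothalamus. All CT-26 sums lay above the controls (log2 0.32 ± 0.07, edgeR adjusted p = 0.0192).

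B2m did not follow the heavy chains. It had 39.9, 40.4 and 35.9 CPM in CT-26 hypothalamus, against 48.7, 42.3 and 42.4 CPM in control hypothalamus, so that every CT-26 library lay below every control, without passing the test (log2 -0.20 ± 0.07, edgeR adjusted p = 0.120). The peptide transporter genes were near the threshold. Tap1 had 6.98, 6.16 and 4.96 CPM in CT-26 hypothalamus, against 4.58, 4.37 and 3.41 CPM in control hypothalamus (log2 0.53 ± 0.16, edgeR adjusted p = 0.0682). Tap2 had 12.5, 13.8 and 11.8 CPM in CT-26 hypothalamus, against 10.3, 10.7 and 10.2 CPM in control hypothalamus (log2 0.28 ± 0.09, edgeR adjusted p = 0.0750). The groups of both transporters did not overlap. The class I sum, Tap1, the Ifitm pair and the neutrophil marker sum were all lowest in mouse 3 among the CT-26 hypothalami. Each of them lay above every control in that mouse, where the neutrophil marker sum was 26.0 TPM, against 2.97 to 3.88 TPM in controls. The order was not particular to neutrophil markers. The macrophage and monocyte, microglial and dendritic cell sums, given below, were also lowest in CT-26 mouse 3. Ifit3, which was called higher, was instead highest in that mouse. The part of any of these cells was not tested.

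**Figure D3:**
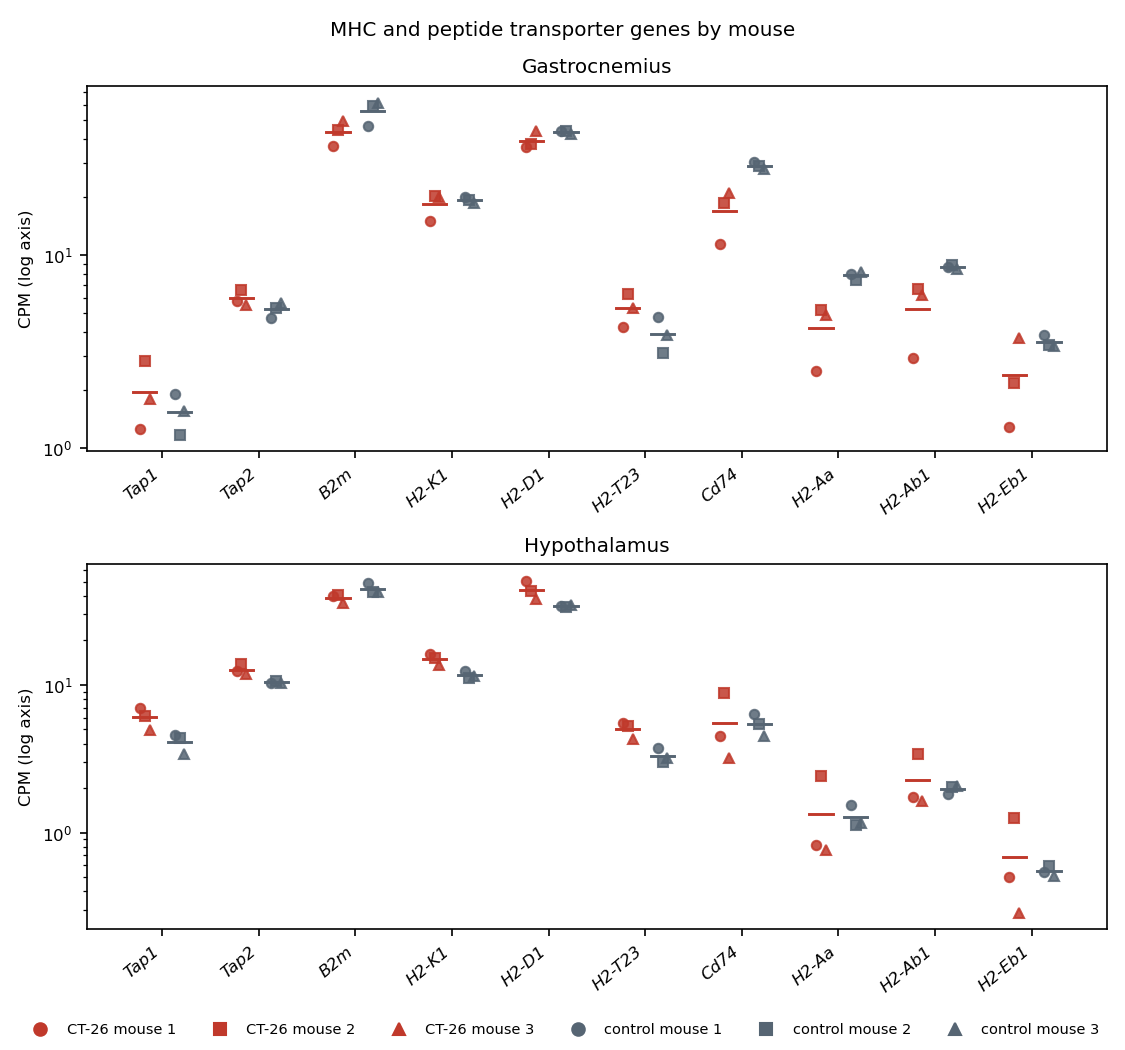
CPM of the peptide transporter, class I and class II genes in each mouse (log axis), CT-26 in red and control in grey, with marker shape giving the mouse and a line the group mean. Cd74 and H2-Aa sit lower in CT-26 gastrocnemius, where H2-Eb1 overlaps between groups, and H2-K1, H2-D1 and H2-T23 sit higher in CT-26 hypothalamus, while class II there is high in CT-26 mouse 2 alone.

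Class II in the hypothalamus varied within the CT-26 group. Cd74 had 4.51, 8.76 and 3.18 CPM in CT-26 hypothalamus, against 6.34, 5.41 and 4.50 CPM in control hypothalamus. H2-Aa had 0.823, 2.41 and 0.763 CPM in CT-26 hypothalamus, against 1.53, 1.12 and 1.16 CPM in control hypothalamus. All 4 class II members were highest in CT-26 mouse 2 and lowest in CT-26 mouse 3, and all 4 groups overlapped, with log2 fold changes of -0.02 to 0.21. The microglial marker sum had the same order, at 88.9, 122 and 83.2 TPM in CT-26 hypothalamus, against 113, 107 and 106 TPM in control hypothalamus. So did the macrophage and monocyte sum, at 42.0, 44.6 and 33.9 TPM in CT-26 hypothalamus, against 21.2, 22.6 and 23.4 TPM in control hypothalamus. The dendritic cell sum followed it as well, at 6.8, 6.85 and 5.78 TPM in CT-26 hypothalamus, against 6.36, 7.28 and 7.47 TPM in control hypothalamus. The part of these cells was not tested.

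Among the effectors of the hypothalamus, Ifit3 (chromosome 19, 34583531 to 34588731), a member of the antiviral tetratricopeptide family, had 5.40, 6.56 and 7.21 CPM in CT-26 hypothalamus, against 4.20, 4.93 and 3.74 CPM in control hypothalamus. Its groups did not overlap (log2 0.58 ± 0.15, edgeR adjusted p = 0.0384). Of its stretches of 100 bases, 31.7% are shared with the neighbouring copy Ifit3b, so the pair was also summed, which gave a log2 fold change of 0.37 ± 0.10 in hypothalamus (edgeR adjusted p = 0.0411). In muscle the sum was 0.656, 1.28 and 2.27 CPM in CT-26 mice, against 5.77, 3.85 and 3.91 CPM in controls, 3.26-fold lower (edgeR adjusted p = 0.0125), whereas Ifit3 alone did not pass there (log2 -0.16 ± 0.45). Ifitm3 had 12.7, 13.8 and 9.80 CPM in CT-26 hypothalamus, against 8.91, 8.13 and 7.33 CPM in control hypothalamus (log2 0.57 ± 0.14, edgeR adjusted p = 0.0290). Ifitm2 had 8.77, 7.57 and 5.17 CPM in CT-26 hypothalamus, against 4.95, 3.90 and 4.65 CPM in control hypothalamus, and missed the threshold (log2 0.66 ± 0.19, edgeR adjusted p = 0.0558). The groups of both Ifitm genes did not overlap.

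Irf9 and Ifi27 went the other way. Irf9 (chromosome 14, 55603571 to 55610030), a DNA-binding partner of STAT2, had 11, 13.4 and 12.8 CPM in CT-26 hypothalamus, against 19.1, 21 and 15.4 CPM in control hypothalamus. It fell by 0.58 ± 0.12 on the log2 scale (edgeR adjusted p = 0.0150). Stat2 had 20.1, 21.6 and 21.4 CPM in CT-26 hypothalamus, against 26.8, 25.2 and 23.4 CPM in control hypothalamus, with no overlap, and missed the threshold (log2 -0.25 ± 0.07, edgeR adjusted p = 0.0558). Ifi27 had 9.34, 9.77 and 7.55 CPM in CT-26 hypothalamus, against 11.7, 12.1 and 11.4 CPM in control hypothalamus (log2 -0.41 ± 0.11, edgeR adjusted p = 0.0412). Ifi27 was thus lower and Ifitm3 higher in both tissues. The 16 effectors not yet named for this tissue, among them Isg15, Usp18, Oas1a, Oasl2, Mx2, Rsad2 and Bst2, had log2 fold changes of -0.31 (Gbp3) to 0.58 (Rsad2) and adjusted p of 0.234 or more. Zbp1, too low to be tested, had 22 reads in the CT-26 hypothalami and 3 in the controls.

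The hypothalamic calls lay close to the threshold. Without CT-26 mouse 2 or control mouse 3, none of the 5 higher members passed (adjusted p of 0.0615 to 0.107 over the 5), and without CT-26 mouse 1 or control mouse 2 Ifit3 alone passed. Without control mouse 1 the higher members numbered 3. Without CT-26 mouse 1 the log2 fold change of H2-D1 was 0.25. The 2 lower members numbered 0 without CT-26 mouse 1 or control mouse 2, and 1 without CT-26 mouse 3 or control mouse 1. Without control mouse 3 they numbered 2, but Stat2 (edgeR adjusted p = 0.0486) took the place of Ifi27 (0.0771). Of the 6 fits that left out 1 library, Irf9 was called in 4 and Ifi27 in 1. Ifi27 also lost its call with library totals (edgeR adjusted p = 0.0598). In TPM none of the 5 higher and 2 lower members passed. Their limma adjusted p ran from 0.0641 (H2-K1) to 0.149 (H2-D1), with 0.0870 for Ifi27. Over all alternatives the 5 higher members kept positive fold changes, of 0.25 to 0.72 on the log2 scale.

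The response of the 2 tissues was compared by the interaction term over all 12 libraries, which gives the log2 fold change in hypothalamus minus that in gastrocnemius. Of 36 members, 2 had a higher response in hypothalamus, against 16.8% of the 13572 genes tested in both tissues, and 0 had a lower one, against 16.4%. Irf1 differed by 0.90 ± 0.24 (edgeR adjusted p = 0.0160), with log2 fold changes of 0.29 in hypothalamus and -0.59 in muscle, neither of which passed alone. H2-D1 differed by 0.53 ± 0.15 (edgeR adjusted p = 0.0201), with 0.36 in hypothalamus and -0.15 in muscle. With the mouse as a block, since both tissues came from the same animals, H2-D1 lost its call (0.53, edgeR adjusted p = 0.0644) and 1 member remained, Irf1. H2-K1 differed by 0.45 ± 0.16 (edgeR adjusted p = 0.0574), and the 4 class II members by 0.77 to 0.95 with adjusted p of 0.136 or more. No difference between tissues was detected for Ifitm2 (-0.03 ± 0.27) and Ifitm3 (-0.06 ± 0.24). The members' median difference was 0.34, against 0.02 over all genes tested in both tissues. The genes called split into 2286 higher and 2224 lower, with library totals into 1385 higher and 3106 lower, and in TPM into 652 higher and 3816 lower. By library totals or in TPM neither Irf1 (0.71 and 0.33) nor H2-D1 (0.34 and 0.12) passed. Without CT-26 mouse 3 the members with a higher response in hypothalamus numbered 8 rather than 2. They numbered 1 without CT-26 mouse 1, control mouse 1 or control mouse 2, and 0 without control mouse 3.

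Upstream of the members, the interferon genes had few or no reads. Of 20 listed interferon genes, all 20 had 0 reads in the 6 muscle libraries, which allows up to 0.016 CPM each, and 16 had 0 reads in the hypothalamus as well. Ifng had 23 reads over the 6 hypothalamus libraries, at 0.107, 0.216 and 0.0763 CPM in CT-26 mice and 0.102, 0.177 and 0.0363 CPM in controls, and Ifnb1 had 0 in all 12. Such limits cover counting error only. The receptors Ifnar1 and Ifngr1 were not called in either tissue.

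In muscle, 4 of 15 tested ligand, receptor and kinase genes rose and 4 fell, 26.7% in each direction, against 19.6% and 18.3% of all genes tested. Ifngr2, the second chain of the interferon gamma receptor, had 47.9, 71.7 and 51.2 CPM in CT-26 muscle, against 96.1, 105 and 87.0 CPM in control muscle (log2 -0.76 ± 0.17, edgeR adjusted p = 0.0104). Jak1 fell too (log2 -0.58 ± 0.16). Socs3, the feedback inhibitor of interleukin 6 and related cytokines (log2 2.69 ± 0.34), Stat3, a transcription factor that induces it (1.20 ± 0.16), and the phosphatase Ptpn2 (0.51 ± 0.12) rose. Socs1 had a log2 fold change of -0.95 ± 0.73 and was not called. Socs3 had 16.0, 16.2 and 29.9 CPM in CT-26 muscle, against 3.69, 4.03 and 1.92 CPM in control muscle. In hypothalamus 0 of 16 tested genes of this list were called.

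Of 20 class II regulators and other MHC genes tested in muscle, 1 rose (5%, against 19.6% of all genes) and 5 fell (25%, against 18.3%). Ciita, the master coactivator of class II, had 0.106, 0.194 and 0.149 CPM in CT-26 muscle, against 0.548, 0.440 and 0.533 CPM in control muscle, 3.47-fold lower (log2 -1.79 ± 0.37, edgeR adjusted p = 0.00704). H2-Ea-ps, the class II alpha chain annotated as a pseudogene in the reference strain but used by BALB/c mice, had 1.25, 3.14 and 2.57 CPM in CT-26 muscle, against 4.89, 5.57 and 4.48 CPM in control muscle (log2 -1.13 ± 0.31, edgeR adjusted p = 0.0220). Fcgrt, the neonatal Fc receptor that pairs with B2m, fell by 0.70 ± 0.15, and Rfx5, a subunit of the factor on which Ciita acts, rose by 1.03 ± 0.20 on the log2 scale. In hypothalamus 1 of 22 rose (4.55%, against 3.94% of all genes) and 0 fell. The class I gene H2-Q4 had 4.19, 3.89 and 3.57 CPM in CT-26 hypothalamus, against 3.05, 2.13 and 2.21 CPM in control hypothalamus (log2 0.65 ± 0.17, edgeR adjusted p = 0.0407). Ciita was too low to be tested there.

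**Figure D4:**
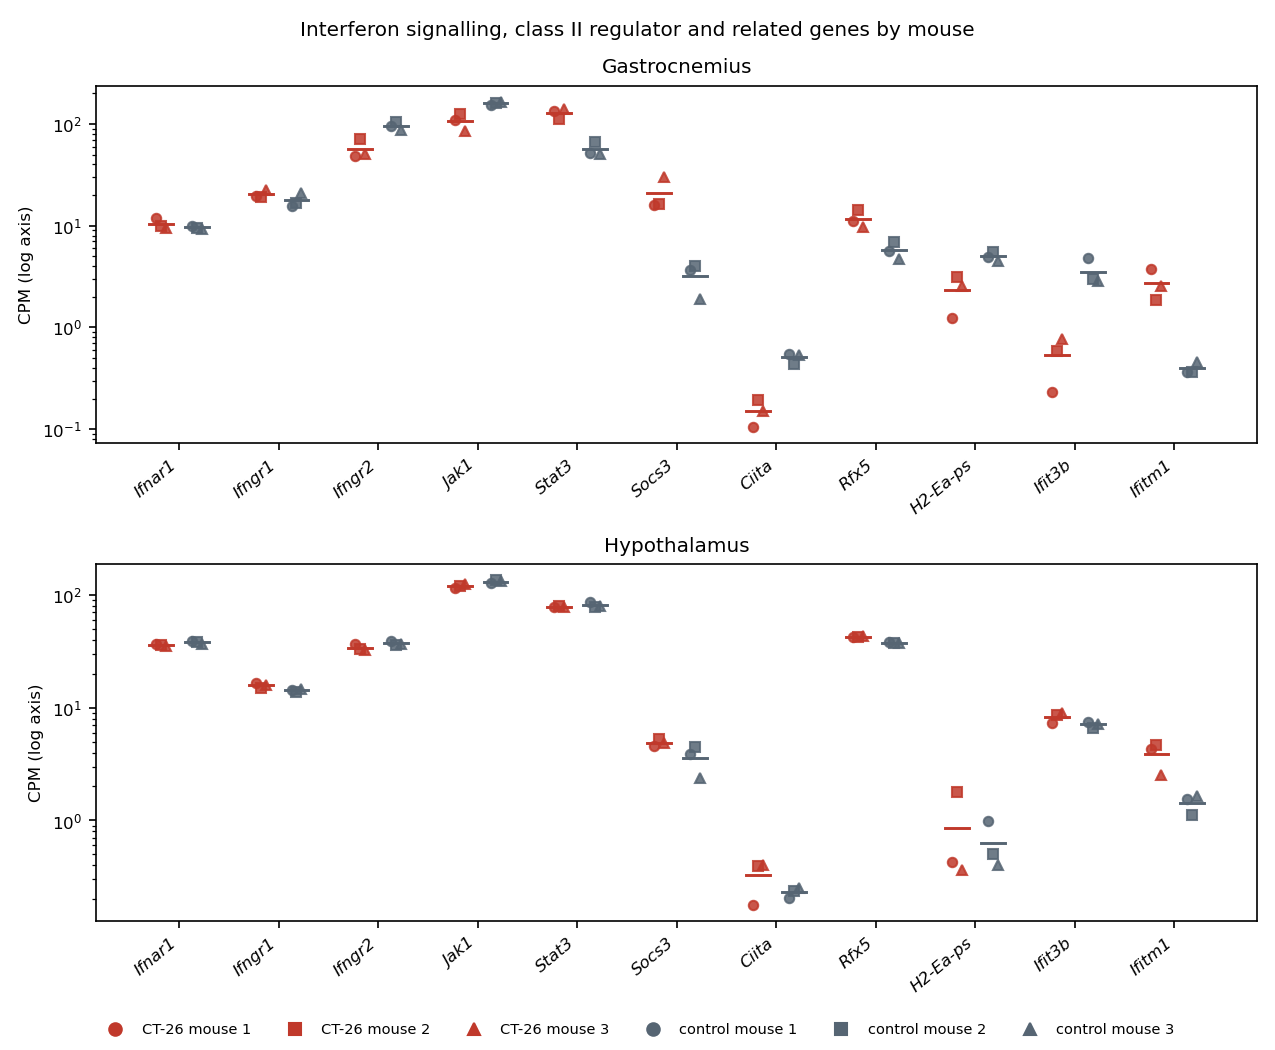
CPM of receptor, kinase, class II regulator and related genes in each mouse (log axis), CT-26 in red and control in grey, with marker shape giving the mouse and a line the group mean. In gastrocnemius Ifngr2, Ciita, H2-Ea-ps and Ifit3b are lower and Stat3, Socs3, Rfx5 and Ifitm1 higher in CT-26 mice, and in hypothalamus Ifitm1 alone of these passed the test.

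Of 49 other interferon-stimulated genes tested in muscle, 6 rose (12.2%) and 8 fell (16.3%), both below the shares of all genes, 19.6% and 18.3%. Ifitm1, the third of the Ifitm cluster, had 3.75, 1.86 and 2.57 CPM in CT-26 muscle, against 0.365, 0.367 and 0.462 CPM in control muscle (log2 2.78 ± 0.34). Ifi30, a lysosomal thiol reductase, and Daxx, a chromatin chaperone, rose by 1.78 ± 0.22 and 1.28 ± 0.12. Ifi27l2a, a relative of Ifi27, had 0.847, 1.05 and 2.45 CPM in CT-26 muscle, against 10.4, 12.5 and 14.1 CPM in control muscle (log2 -3.10 ± 0.36). Ifit3b and Ifi203 had log2 fold changes of -2.78 ± 0.42 and -1.18 ± 0.20. In hypothalamus 4 of 49 rose (8.16%, against 3.94% of all genes) and 0 fell. Ifitm1 had 4.33, 4.69 and 2.55 CPM in CT-26 hypothalamus, against 1.56, 1.12 and 1.63 CPM in control hypothalamus (log2 1.41 ± 0.25, edgeR adjusted p = 0.00901). Slfn2, Oas1c and Oas1b rose by 1.38, 0.93 and 0.95 on the log2 scale. All Ifitm values stand beside the neutrophil and the macrophage and monocyte marker sums given above, and the part of these cells was not tested.

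Among sensor pathway genes in muscle, 4 of 16 rose (25%, against 19.6% of all genes) and 1 fell (6.25%, against 18.3%). Those that rose included Tmem173, which encodes the DNA sensor adaptor STING (0.98 ± 0.16), Irf3 (0.53 ± 0.14) and Myd88 (0.75 ± 0.21). The gene that fell was Irf5 (-1.40 ± 0.36). In hypothalamus 1 of 18 rose (5.56%, against 3.94% of all genes), Tlr7 (0.96 ± 0.25). Likewise 1 fell (5.56%, against 4.83%), Irf3 (-0.33 ± 0.09). Of 14 interferon-induced GTPases in muscle, 1 rose (7.14%, against 19.6% of all genes) and 2 fell (14.3%, against 18.3%). Irgm1 rose (0.47 ± 0.13), and Gbp7 (-1.54 ± 0.20) and Tgtp2 (-1.16 ± 0.38) fell. In hypothalamus 0 of 15 were called, where 3.94% of all genes were higher and 4.83% lower. Of 12 immunoproteasome and peptide-loading genes, 2 rose in muscle (16.7%, against 19.6% of all genes) and 1 fell (8.33%, against 18.3%). The endoplasmic reticulum chaperones Canx (0.98 ± 0.19) and Calr (0.63 ± 0.16) rose and Psme1, a proteasome activator subunit, fell (-0.94 ± 0.16). In hypothalamus 0 of the 12 rose and 1 fell (8.33%, against 4.83% of all genes), Calr (-0.31 ± 0.07). Nlrc5, the class I counterpart of Ciita, had log2 fold changes of -0.10 ± 0.47 in muscle and 0.37 ± 0.37 in hypothalamus. Over the 6 lists, 18 of 126 tested genes rose in muscle (14.3%, against 19.6% of all genes) and 21 fell (16.7%, against 18.3%), with a median log2 fold change of -0.13. In hypothalamus 6 of 132 rose (4.55%, against 3.94% of all genes) and 2 fell (1.52%, against 4.83%), with a median of 0.05.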

How the data were processed

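Total RNA of gastrocnemius and hypothalamus was sequenced in 12 libraries. Per the submitters' processing notes, reads were trimmed with Trim Galore 0.6.6, aligned with STAR 2.7.9a and quantified with RSEM 1.3.3 on GRCm38. The annotation release and strand setting are not given in the sources used here, and antisense partners were not separated. The authors deposited RSEM expected counts and TPM per Ensembl gene. Expected counts divide reads between similar genes by estimation, and reads from BALB/c MHC alleles had to match the C57BL/6J reference. Names came from GENCODE M21, which matched 52083 of 55416 identifiers holding 99.6% of counts, among them all 38 members. The other 3333 identifiers stayed in the fits.

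Expected counts were rounded, filtered with filterByExpr, scaled by TMM and tested per tissue with edgeR 4.0.16 (quasi-likelihood, R 4.3.3). Genes were called at a Benjamini-Hochberg adjusted p below 0.05 over all genes tested. CPM use the same TMM factors. Alternatives used library totals, DESeq2 1.42.0, its size factors in edgeR, no filter, at least 1 CPM in 3 libraries, limma 3.58.1 on log2(TPM + 0.5), a replicate block, or one library fewer.

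The tissues of a mouse share its number in the labels, so the mouse block pairs them in the tissue comparison. There the deviations of same-numbered libraries from their group means correlated by -0.02 to 0.09. No 2 libraries agreed within counting noise. The labels name separate mice but no litter, cage or batch.

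The members and lists were chosen with earlier results of these data known. All members are named, and from each further list up to 3 called genes a direction and tissue with the smallest p, plus Ifng, Ifnb1, Ifnar1, Ifngr1, Ciita, Nlrc5 and Socs1. One gene of the lists is not reported here. Oas1b and Zbp1's read sums were added after their values were seen. The sums of Ifit3 with Ifit3b and of the class I heavy chains were also chosen after seeing the data.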

Additional observations from a re-analysis of the deposited data

Results flagged for a closer look

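The members and pathway genes below had a different response to the CT-26 tumour in the 2 tissues by the interaction term of the edgeR quasi-likelihood fit. Each value is the log2 fold change in hypothalamus minus that in gastrocnemius, with adjusted p from 4.59e-05 to 0.0474. Both tissues share their mice, and in the same comparison 16.8% of genes had a higher and 16.4% a lower response in hypothalamus.

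Of the members, the difference was 0.90 for Irf1 and 0.53 for H2-D1. That of H2-D1 lost its call with the mouse as a block (edgeR adjusted p = 0.0644) and in 5 of 6 fits that left out 1 mouse, and that of Irf1 in 1 of 6. Of signalling genes it was 0.64 for Ifngr2, -1.23 for Stat3, -2.23 for Socs3 and -0.40 for Ptpn2. Of sensor pathway genes it was -1.02 for Tmem173, -0.85 for Irf3 and 1.22 for Irf5. Of other interferon-stimulated genes it was 3.05 for Ifit3b, 3.10 for Ifi27l2a, -1.36 for Ifitm1, -1.85 for Ifi30 and -1.22 for Daxx. The interferon-induced GTPases Gbp7 and Tgtp2 differed by 1.78 and 1.65. In antigen processing the difference was 1.01 for Psme1, -0.92 for Calr and -1.09 for Canx, and among MHC genes and regulators it was 0.83 for H2-Q4, 0.99 for Fcgrt and -0.83 for Rfx5. Irf3 passed in both tissues, with log2 fold changes of -0.33 in hypothalamus and 0.53 in muscle, and so did Calr, with -0.31 in hypothalamus and 0.63 in muscle.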

How the results depend on the processing

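Of 1392 values of single genes under the alternatives, 1294 stayed on the same side of the threshold, 62 lost a call and 36 gained one. None of the 183 values of called genes changed sign. Some members not called did, among them Ifit3 in 3 alternatives and Lgals3bp and B2m in 1 each, in muscle. Under limma on TPM, the members called in muscle were 4 higher and 1 lower, those in hypothalamus 0 and 0, and those of the tissue difference 0 higher and 1 lower (Irf9). Under library totals, 1 member was lower in hypothalamus and 0 differed upward between tissues. Without the filter, 9 members were higher in hypothalamus. Leaving out 1 library gave 0 to 3 members higher and 1 to 8 lower in muscle, 0 to 6 higher and 0 to 2 lower in hypothalamus, and 0 to 8 higher for the tissue difference. The cause was not tested.

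Replicate numbers were shared by CT-26 and control mice, which are different animals. In muscle, same-numbered libraries of the 2 conditions correlated by -0.06, 0.18 and 0.26, and differently numbered ones by -0.25 to 0.10. In hypothalamus, same-numbered libraries correlated by -0.10, -0.03 and 0.00, and differently numbered ones by -0.08 to 0.09. Whether the numbers pair the muscle libraries cannot be told from these values. With a replicate block, 6 members were lower in muscle, where Usp18, B2m and H2-Ab1 joined, and 4 were higher and 1 lower in hypothalamus, where Ifit3, H2-T23 and Ifi27 lost their calls (edgeR adjusted p = 0.0609, 0.0517 and 0.0521) and Tap1 gained one (0.0430). The mouse block left 1 member in the tissue difference. Depth limits Zbp1 and Mx1, which were not tested in either tissue.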
